A study of Mus musculus with 9 samples.

Results

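The genes described here are 7 mouse apolipoprotein L genes, Apol7a, Apol7b, Apol7c, Apol7e, Apol9a, Apol9b and Apol10b, taken by name from a table of 54532 genes. Gene levels were measured by RNA-seq as FPKM, the reads on a gene per kilobase of its length, scaled to a size for each library. The 7 genes were gathered around Apol7c because it was among the genes with the largest loss in the MHCII-low dendritic cells (DCs) of leukemic spleens, so the values of those cells chose them. The table names 14 Apol genes in all, and the other 7 are Apol6, Apol7d, Apol8, Apol10a, Apol10c-ps, Apol11a and Apol11b.

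The 9 samples fell into 3 groups of 3, all sorted from the spleen of mice and none given a drug, and the study used young adult female mice. N-mDCs came from normal mice and were their mature conventional DCs. T-mDCs were the same kind of cell taken from mice at a late stage of T cell acute lymphoblastic leukemia (T-ALL), and T-DCs were CD11c+ cells of such mice that carried little MHCII on their surface. The leukemia was started by a retrovirus that expresses the intracellular part of Notch1 together with GFP in c-kit+ bone marrow cells of C57BL/6J mice, and its GFP+ cells were passed on to C57BL/6J or C57B6.SJL recipients that were not irradiated, so the recipients kept their own blood cells. CD11c+ cells were enriched on beads after lysis of red cells and then sorted. T-DCs were defined by low MHCII, which is therefore no result. Whether each sample came from a separate mouse is not given in the sources used here, so p-values measure the spread between these samples only. T-DC samples 2 and 3 stood apart by red cell transcripts, with 58680 and 43050 summed FPKM of 10 erythroid genes where T-DC sample 1 had 614, and T-mDC samples 2 and 3 were very alike.

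Apolipoprotein L proteins bind lipids and membranes, and several of them can open membranes. The best known is human APOL1, which forms pores in the membranes of trypanosomes. In mouse conventional DCs, and above all in the cDC1 subset, APOL7C is known as a protein that goes to phagosomes holding antigen and opens them, so that antigen reaches the cytosol for cross-presentation on MHC class I. Apol9a and Apol9b are known as genes induced by interferon. The mouse genes arose by duplication, stand side by side on 1 chromosome and resemble each other, which matters for counting reads.

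All 7 genes lie in 1 cluster on chromosome 15 (build mm10). In order along the chromosome they are Apol7a (chr15:77388219-77399110, minus strand), Apol9a (chr15:77403789-77411135, minus strand), Apol7b (chr15:77422209-77447492, minus strand), Apol7c (chr15:77524852-77533316, minus strand), Apol10b (chr15:77583819-77596125, minus strand), Apol7e (chr15:77698857-77719285, plus strand) and Apol9b (chr15:77729039-77736382, plus strand). All are annotated as protein-coding. Apol10a and Apol11a stand between Apol7b and Apol7c, Apol11b and Apol10c-ps stand between Apol10b and Apol7e, and Apol8 closes the cluster after Apol9b. From Apol7a to Apol8 the cluster spans 368.8 kb.

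Apol7c, Apol7b and Apol7e are close copies with very different levels in these cells, so the 250 bases before their RefSeq start sites (GRCm38.p6, written 5′ to 3′ on the strand of the gene) are shown first. The windows are chr15:77533316-77533565 for Apol7c and chr15:77447461-77447710 for Apol7b, both on the minus strand, and chr15:77698639-77698888 on the plus strand for Apol7e. Capitals mark the NBRE, the letters AAAGGTCA known as the monomer site of the Nr4a nuclear receptors, and the aligned 8 bases of the copies.
Apol7c: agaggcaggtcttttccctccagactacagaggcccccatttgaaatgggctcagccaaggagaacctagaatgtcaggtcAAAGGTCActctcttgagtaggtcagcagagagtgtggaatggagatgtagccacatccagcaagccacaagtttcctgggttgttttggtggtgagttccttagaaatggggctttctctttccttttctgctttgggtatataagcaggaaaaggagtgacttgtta
Apol7b: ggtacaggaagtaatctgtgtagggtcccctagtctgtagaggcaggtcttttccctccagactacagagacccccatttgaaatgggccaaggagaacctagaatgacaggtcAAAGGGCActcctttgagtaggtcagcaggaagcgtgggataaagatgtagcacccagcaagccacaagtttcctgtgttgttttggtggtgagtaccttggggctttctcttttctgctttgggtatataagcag
Apol7e: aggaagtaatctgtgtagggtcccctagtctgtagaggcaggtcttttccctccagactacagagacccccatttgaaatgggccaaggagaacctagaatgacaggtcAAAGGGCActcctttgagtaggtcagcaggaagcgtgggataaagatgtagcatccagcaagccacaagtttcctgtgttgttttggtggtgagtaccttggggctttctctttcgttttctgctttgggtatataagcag
Over 256 aligned bases around the start site Apol7c and Apol7b were 89.8% identical, and over 261 bases Apol7c and Apol7e were 89.7% identical. The NBRE letters were found in Apol7c, 169 bases before its start site on the plus strand of the gene. Both copies differ from it by T6G, with the base of Apol7c first and positions counted from 1 at the 5′ end of the capitals. Of 32851 RefSeq promoter windows, 250 bases before to 50 after the start site, 1.51% hold AAAGGTCA on either strand. Such a match is a run of letters and not a measured site. In Apol7c the bases just before the capitals, together with the opening capital, spell the same letters as the end of the capitals. The NBRE therefore also lies inside a repeat of these letters, with 1 base between its parts. Apol7b and Apol7e keep the earlier part, and T6G changes the later part. Such repeats were not searched for, and whether the change bears on the levels was not tested.

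Apol10b is shown because its level followed that of Apol7c over the samples, and Apol9b because it was the member read mainly in a single T-DC sample. The window of Apol10b is chr15:77596126-77596375 on the minus strand, with capitals on a match to the NF-kB letters GGGNNTTCC, read on the opposite strand. The window of Apol9b is chr15:77728822-77729071 on the plus strand, and its capitals cover 2 overlapping matches to GAAANNGAA on the opposite strand, the paired core letters of interferon response elements.
Apol10b: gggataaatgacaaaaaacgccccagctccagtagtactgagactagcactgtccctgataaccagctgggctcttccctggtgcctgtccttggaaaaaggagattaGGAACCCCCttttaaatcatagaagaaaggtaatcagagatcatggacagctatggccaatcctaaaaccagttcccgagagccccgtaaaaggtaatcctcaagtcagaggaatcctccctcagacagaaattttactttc
Apol9b: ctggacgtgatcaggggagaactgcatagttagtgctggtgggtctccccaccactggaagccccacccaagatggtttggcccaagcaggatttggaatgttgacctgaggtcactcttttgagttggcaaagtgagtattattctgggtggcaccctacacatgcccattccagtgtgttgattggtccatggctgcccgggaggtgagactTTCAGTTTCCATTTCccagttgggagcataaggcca
The NF-kB letters were found in 5.82% of all windows, and among the members also in those of Apol9a and Apol9b. GAAANNGAA was found in 8.56% of all windows, and among the members in the windows of Apol7c, Apol7e, Apol9a, Apol9b and Apol10b. The letters AGATAA, a form of the GATA site held by 11.2% of all windows, were in none of the windows of the Apol genes. Other forms were not counted over all windows. The form TGATAA stands, on either strand, in the windows of Apol10b, Apol10a, Apol11a and Apol11b. It has no background share to be set against, and whether it bears on the levels was not tested.

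Apol7c was the dominant apolipoprotein L gene of both groups of mature DCs and was nearly lost in T-DCs. Its level was 315, 90.1 and 124 FPKM in N-mDC samples 1 to 3, 59.4, 84.8 and 88.6 FPKM in T-mDC samples 1 to 3, and 1.84, 1.72 and 0.0959 FPKM in T-DC samples 1 to 3. Every T-DC sample was far below every mature sample, and the lowest of all, T-DC sample 3, rested on 3 reads where the N-mDC samples had 2987 to 10155. The mean FPKM of N-mDCs was 145-fold that of T-DCs, and the mean of T-mDCs was 63.6-fold that of T-DCs. On the log2(FPKM + 1) scale, which understates the change of low levels, T-DCs were lower than N-mDCs by 6.23 ± 0.51 (log2 fold change -6.23, SE, n = 3 per group) and lower than T-mDCs by 5.25 ± 0.51 (log2 fold change -5.25). Both differences belong to the comparison that chose the gene and are given with no test. Genes entered the tests when at least 3 samples reached an FPKM of 1, and among the 12746 such genes the log2 fold change of Apol7c against N-mDCs stood second from the bottom, between Nr4a3 (-6.34), an orphan nuclear receptor, and Ccr7 (-5.90), the receptor that guides mature DCs to lymph nodes. In bulk samples, fewer cells that express the gene and less RNA of it per cell cannot be told apart.

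The same drop was seen in Apol10b at lower levels. N-mDCs had 10.8, 2.80 and 5.09 FPKM, T-mDCs 2.67, 8.70 and 7.30 FPKM, and T-DCs 0.384, 0.167 and 0.142 FPKM. The 2 groups of mature cells overlapped each other, whereas all T-DC samples were below both. Against N-mDCs the log2 fold change of T-DCs was -2.40 (SE 0.46), and against T-mDCs it was -2.44 (SE 0.46), again with no test. Over the 9 samples, Pearson's r between log2(FPKM + 1) of Apol7c and of Apol10b was 0.942, as a description that the low T-DC samples largely set.

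**Figure D1:**
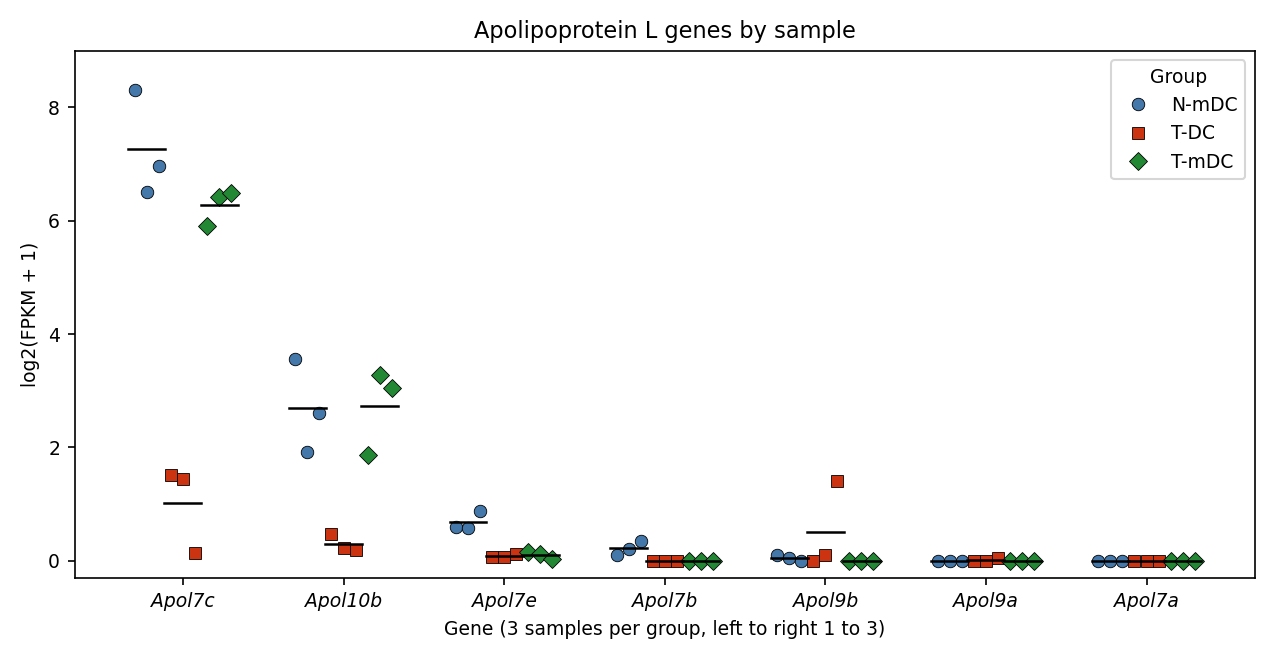
Level of each of the 7 genes as log2(FPKM + 1) in each of the 9 samples, with samples 1 to 3 of a group from left to right and a black line at the group mean. Apol7c is highest in all mature samples, T-DCs are lowest for Apol7c and Apol10b, and the other 5 genes stay near 0 apart from Apol7e in N-mDCs and Apol9b in T-DC sample 3 (1.66 FPKM).

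Apol7e and Apol7b were low, and most of their reads came from N-mDCs. For Apol7e the N-mDC samples had 0.503, 0.489 and 0.844 FPKM, the T-DC samples 0.0463, 0.0535 and 0.0818 FPKM, and the T-mDC samples 0.110, 0.0857 and 0.0225 FPKM. N-mDCs were above both other groups with no overlap, and T-DCs and T-mDCs overlapped. Over the samples of a group these levels came from 75 reads in N-mDCs, 7 in T-DCs and 10 in T-mDCs. Apol7b was 0.0787, 0.153 and 0.271 FPKM in N-mDCs, from 21 reads, and was listed at 0 in all 6 samples of the other groups. The pooled Apol7b level of N-mDCs was 6.84-fold the floor of 3 pooled reads in T-DCs and 7.94-fold that in T-mDCs. The floor covers the counting error of the groups at 0 only, and the error of the 21 N-mDC reads is left out.

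Apol9b, Apol9a and Apol7a were at or near 0. Apol9b had 48 reads in T-DCs, of which 46 were in sample 3 (1.66 FPKM) and 2 in sample 2 (0.0709 FPKM), beside 3 reads in N-mDCs and none in T-mDCs. Apol9a had 3 reads in all, in T-DC sample 3 (0.0332 FPKM). Apol7a had no read in any of the 9 samples, where 3 reads in a library would have been 0.0512 to 0.0652 FPKM, so a level under this was not detectable at this depth.

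The comparison of T-mDCs with N-mDCs asks how the genes differ between mature DCs of leukemic and normal spleens, and it was not used to choose the members, although it shares the N-mDC samples with one that was. Only Apol7c and Apol10b passed the filter on low values and were tested, and 0 of the 2 differed by limma with Benjamini-Hochberg adjustment at 0.05. Of all 12746 genes tested, 1.52% were lower and 0.69% were higher in T-mDCs. At an unadjusted p under 0.05 there were 2130 such genes. Apol7c was lower by 0.98 on the log2 scale in T-mDCs (log2 fold change -0.98, SE 0.51, limma adjusted p = 0.372). The highest T-mDC sample (88.6 FPKM) was just below the lowest N-mDC sample (90.1 FPKM), and without N-mDC sample 1 the log2 fold change was -0.46. Apol10b did not differ beyond its spread (log2 fold change 0.04, SE 0.46, limma adjusted p = 0.974), and its sign turned between alternatives.

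The 2 low members could not enter that test. Apol7e was 8.42-fold higher in N-mDCs than in T-mDCs by mean FPKM (0.612 ± 0.201 against 0.0727 ± 0.0450, SD, n = 3), and each N-mDC sample was above each T-mDC sample. Both Apol7e and Apol7b gave p = 0.1 in a two-sided exact permutation test, the smallest p that 3 against 3 allows. This p follows from the lack of overlap between the groups and adds nothing to it. When limma was run with no filter, over 28859 genes, Apol7e was lower in T-mDCs (log2 fold change -0.58, SE 0.09, limma adjusted p = 0.031) and Apol7b was not called (log2 fold change -0.22, limma adjusted p = 0.116).

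The transcripts of Apol7b and Apol7e are 99.3% identical over 2208 aligned bases, so which of them a read came from is uncertain. Of all 100-base stretches of Apol7e, 39.7% occur in no other gene and 54.4% also occur in Apol7b. For Apol7c 93.8% of the 100-base stretches occur in no other gene, and for Apol10b all of them do. Apol9b shares 36.7% of its 100-base stretches with Apol9a. The read length and the handling of reads with several matches are not given in the sources used here.

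A copy of Apol7c inside the cluster moved with it. Gm8221 (chr15:77621834-77626637, plus strand) is annotated as an unprocessed pseudogene, and its 1110 bases are 97.0% identical to the Apol7c transcript. The N-mDC samples had 261, 66.0 and 98.1 FPKM of it, the T-mDC samples 32.5, 45.4 and 46.3 FPKM, and the T-DC samples 2.06, 3.26 and 3.03 FPKM. T-DCs were again below all mature samples, with log2 fold changes of -5.01 (SE 0.45) against N-mDCs and -3.48 (SE 0.45) against T-mDCs, given with no test since reads of the 2 genes can be shared. Of its 100-base stretches 91.2% occur in no other gene, and at 50 bases this was 54.9%. T-mDCs were lower than N-mDCs by 1.52 on the log2 scale (log2 fold change -1.52, SE 0.45), which did not pass the test (limma adjusted p = 0.13).

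The ratio of the FPKM of Gm8221 to that of Apol7c was 0.829, 0.733 and 0.791 in N-mDCs and 0.547, 0.535 and 0.523 in T-mDCs, with no overlap between these mature cells. The log2 of the ratio was lower in T-mDCs by 0.55 (difference -0.55, two-sided exact permutation p = 0.1, the smallest p possible with 3 against 3). The p of the ratio likewise follows from the lack of overlap. In T-DCs the ratio was 1.12, 1.89 and 31.6, on 41, 56 and 51 reads of Gm8221 and 68, 55 and 3 reads of Apol7c. The 3 T-DC samples therefore kept about the same low level of Gm8221 while Apol7c varied among them. With the FPKM of both genes added, T-DCs were lower than N-mDCs by a log2 fold change of -5.78 and lower than T-mDCs by one of -4.58.

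**Figure D2:**
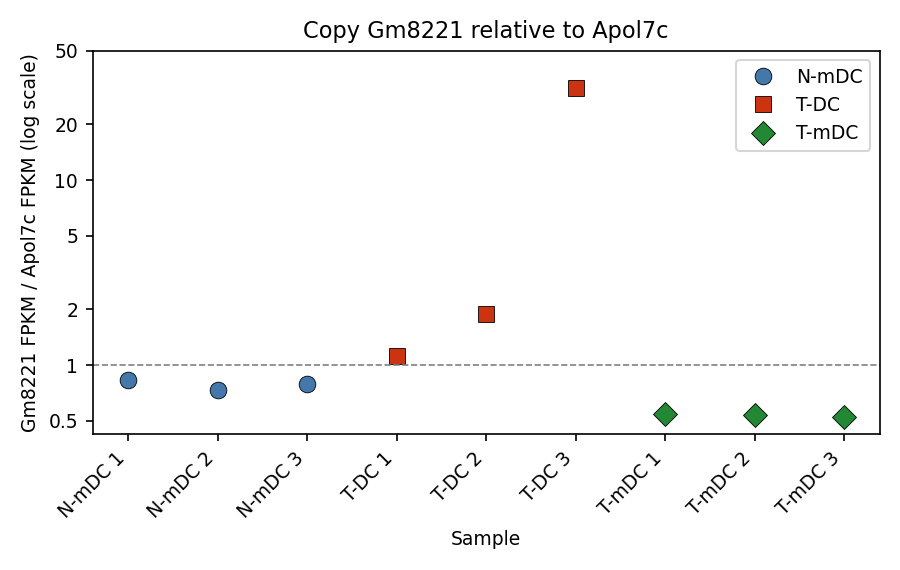
FPKM of Gm8221 divided by FPKM of Apol7c in each sample, on a log axis, with a dashed line at equal levels. N-mDCs lie between 0.733 and 0.829, T-mDCs between 0.523 and 0.547, and the T-DC samples at 1.12, 1.89 and 31.6.

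The other Apol genes of the cluster went the opposite way in 2 of the 3 T-DC samples. Apol11b was 2.43, 187 and 302 FPKM in T-DC samples 1 to 3. N-mDCs had 0.208, 2.75 and 0.760 FPKM of it, and T-mDCs had 0.817, 0.231 and 0.132 FPKM. Apol8 was 0.961, 83.4 and 76.7 FPKM in T-DCs, and at most 1.71 FPKM in any mature sample. Apol11a was 22.5 and 24.4 FPKM and Apol10c-ps, a transcribed pseudogene, 24.7 and 33.6 FPKM in T-DC samples 2 and 3, and both were at most 0.364 FPKM elsewhere. Apol10a was 0.553 and 0.847 FPKM in these 2 samples and listed at 0 in the other 7. T-DC sample 1 stayed within the range of the mature samples for Apol8, Apol10a, Apol11a and Apol11b, so the 3 T-DC samples did not behave as 1 group here. Apol6 was listed at 0 throughout, and Apol7d, which lies on another chromosome, was above 0 in T-DC sample 1 alone (0.0534 FPKM).

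Of these 7 genes, Apol8 and Apol11b passed the filter. Apol11b was higher in T-DCs than in T-mDCs (log2 fold change 5.41, SE 1.44, limma adjusted p = 0.0399) and missed the threshold against N-mDCs (log2 fold change 4.86, SE 1.44, limma adjusted p = 0.0523). Apol8 did not pass in either comparison (log2 fold change 3.78 against T-mDCs, limma adjusted p = 0.0807, and 3.57 against N-mDCs, limma adjusted p = 0.084, SE 1.26 for both). Over all tested genes, 5.44% were higher and 8.79% lower in T-DCs than in T-mDCs, and against N-mDCs 6.1% of genes were higher and 10.3% lower. The call of Apol11b was lost in 13 of 23 alternatives, among them leaving out any N-mDC sample, any T-mDC sample or T-DC sample 2 or 3, for which limma adjusted p ran from 0.06 to 0.134.

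Transcripts of red cells moved with Apol8 and Apol11b. The summed FPKM of 10 erythroid genes, among them Hbb-bs, Alas2 and Klf1, was 614, 58680 and 43050 in T-DC samples 1 to 3, 99.6 to 5364 in N-mDCs and 15.5 to 183 in T-mDCs. All 10 erythroid genes were higher in T-DCs than in T-mDCs and 3 of the 10 were higher than in N-mDCs. With the mean level of these genes as a covariate, the log2 fold change of Apol11b between T-DCs and T-mDCs was -0.29 in place of 5.41. The summed FPKM of 8 neutrophil genes was also high in T-DC samples 2 and 3 (4327 and 1514) and was 8.59 in sample 1. The part of these cells in the levels of the Apol genes was not tested further.

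Apol7c is set beside the same genes here. T-DC sample 1, with erythroid genes at 614 FPKM, had Apol7c at 1.84 FPKM, and N-mDC sample 2, with erythroid genes at 5364 FPKM, had Apol7c at 90.1 FPKM. With the covariate, the log2 fold change of Apol7c in T-DCs became -5.29 against N-mDCs, and it became -3.90 against T-mDCs. The part of red cell RNA in these values was not tested further.

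**Figure D3:**
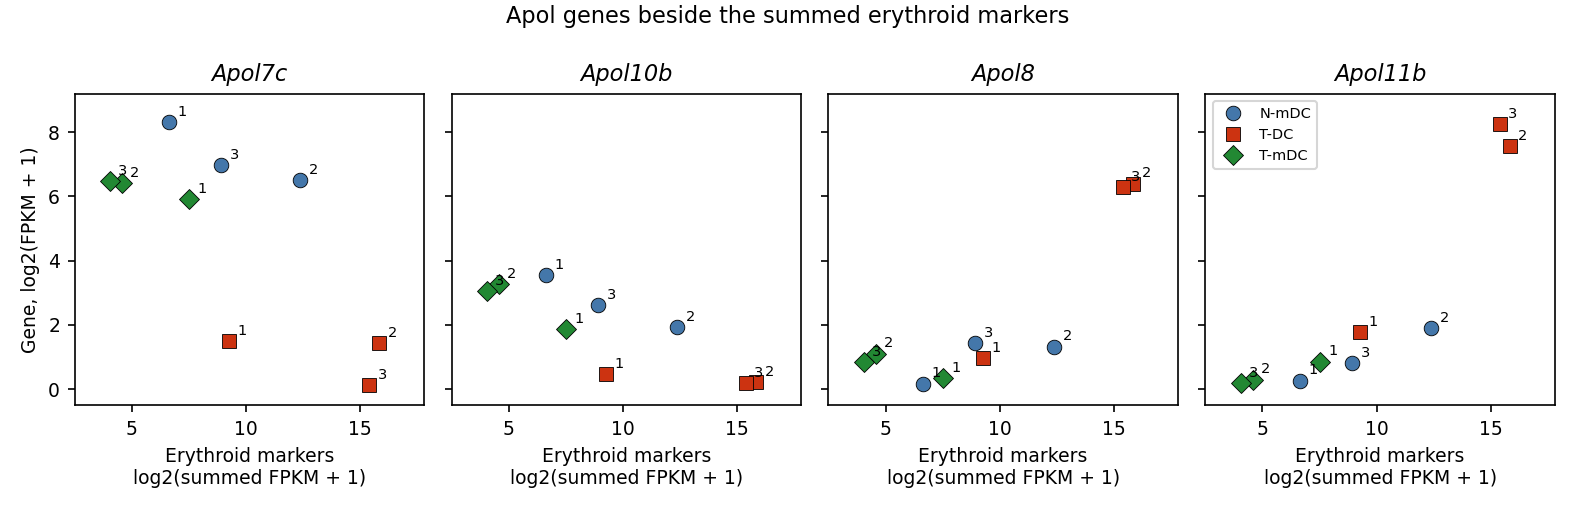
Level of Apol7c, Apol10b, Apol8 and Apol11b, each as log2(FPKM + 1), against the summed FPKM of 10 erythroid genes on a log2 scale, with 1 point for each sample and its number beside it. T-DC samples 2 and 3 stand alone at the right with high Apol8 and Apol11b, and the 3 T-DC samples have 1.84, 1.72 and 0.0959 FPKM of Apol7c.

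The make-up of the family differed between T-DCs and mature cells. Apol7c gave 92.0% to 96.4% of the summed FPKM of all 14 Apol genes in N-mDCs and 89.3% to 93.6% in T-mDCs. In T-DC samples 1 to 3 it gave 30.0%, 0.537% and 0.0218%. Apol8, Apol11a, Apol11b and Apol10c-ps together gave 62.1%, 99.2% and 99.4% of the sum in T-DC samples 1 to 3 and at most 4.45% in any mature sample. The sum itself was 6.14, 321 and 439 FPKM in T-DC samples 1 to 3, against 63.5 to 96.9 FPKM in T-mDCs and 97.9 to 327 FPKM in N-mDCs, so in T-DC samples 2 and 3 the total was above that of every T-mDC sample although Apol7c was below.

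**Figure D4:**
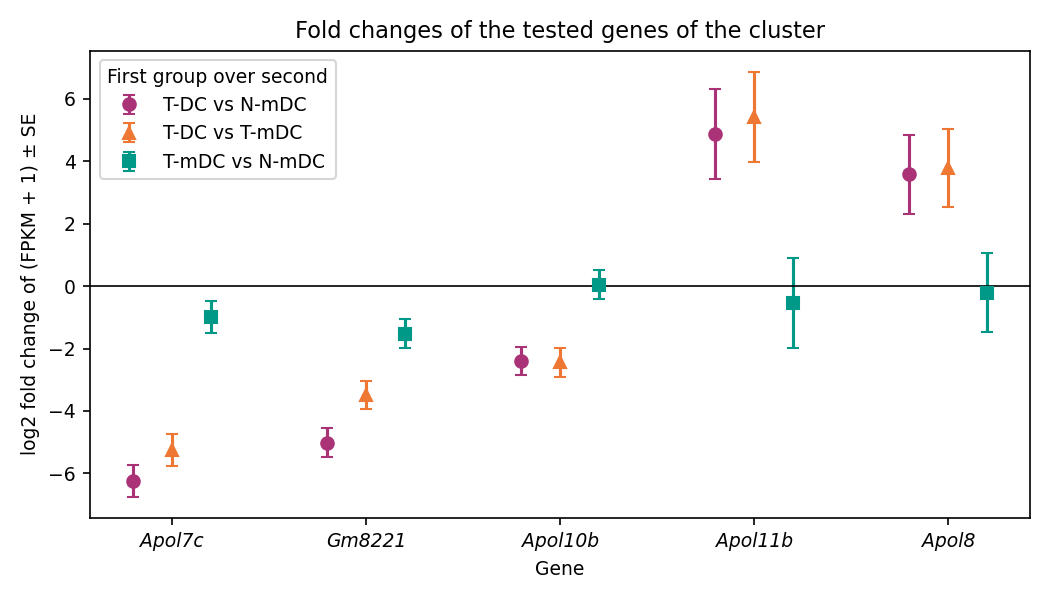
Log2 fold change of (FPKM + 1) for the 5 tested genes inside the cluster in the 3 comparisons, with bars of 1 SE. Apol7c, Gm8221 and Apol10b lie below 0 in both T-DC comparisons, Apol11b and Apol8 lie above 0 with SEs of 1.44 and 1.26, and the comparison of T-mDCs with N-mDCs lies nearest to 0 for each gene.

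The nearest tested protein-coding genes beyond Apol6 on the left and Apol8 on the right were not called. Rbfox2, which stands between Apol6 and Apol7a, did not pass the filter and was not tested. Myh9, which encodes a non-muscle myosin heavy chain and is the next tested gene after Apol8, had a log2 fold change of -0.08 (SE 0.29) in T-DCs against N-mDCs and -0.47 (SE 0.29) against T-mDCs. Rpl8, a ribosomal protein gene on the other side, had 0.13 and 0.24, 1110038F14Rik -0.02 and 0.03, Zfp251 0.38 and 0.15, and Txn2, a mitochondrial thioredoxin gene, 0.18 and 0.33. None of these 5 genes was called in any of the 3 comparisons. Gm22107, a small nuclear RNA gene inside Myh9, fell from N-mDCs to T-DCs (log2 fold change -1.85, SE 0.47, limma adjusted p = 0.0309). Inside the cluster 1700025B11Rik, between Apol7c and Apol10b, was 3.35, 0.674 and 0.996 FPKM in the N-mDC samples, 0.0958 FPKM in T-mDC sample 1 and listed at 0 in the other T-mDC samples and in all T-DCs.

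**Figure D5:**
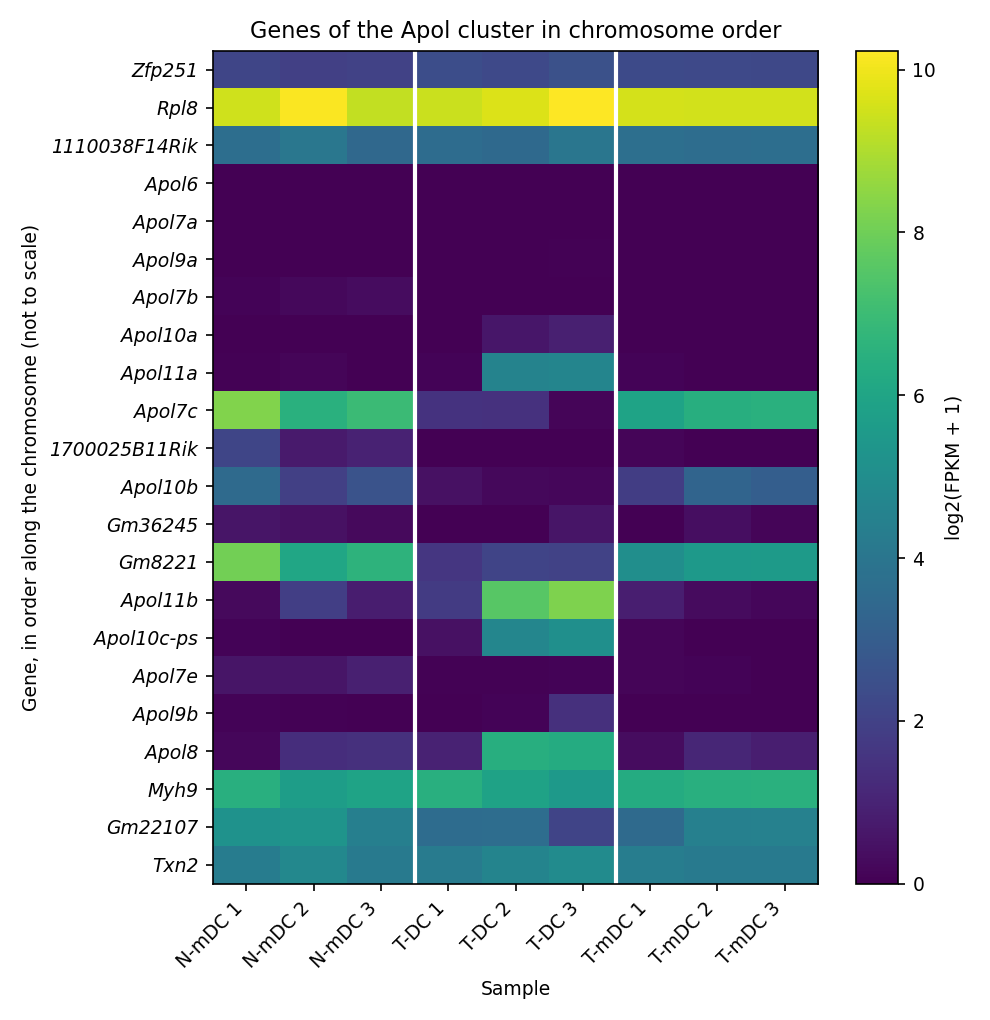
Level as log2(FPKM + 1), by colour, of the Apol genes, Gm8221, 2 further genes of the cluster and the nearest tested genes on each side, in the order of the chromosome and not to scale, with 1 column for each sample. Apol7c, Gm8221 and Apol10b are darker in all T-DC columns, Apol11a, Apol11b, Apol10c-ps and Apol8 are bright in T-DC samples 2 and 3 alone, and the flanking genes are alike across the columns, apart from Gm22107.

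The genes whose pattern over the 9 samples was most like that of Apol7c, by Pearson's r of log2(FPKM + 1), were Abhd6 (0.994), Smad7 (0.994), H2-DMb2 (0.991), Klri1 (0.991) and Dennd3 (0.988). For Apol10b they were Lpar3 (0.995), Nsmaf (0.994), Dlgap3 (0.993), Tnfsf4 (0.990) and Dnajc22 (0.989). Abhd6 encodes a monoacylglycerol lipase, Smad7 an inhibitor of TGF-beta signaling, H2-DMb2 a chain of the chaperone that loads peptide on MHCII, and Tnfsf4 the ligand OX40L. The 9 points share 3 low T-DC samples, and the r values are given as a description only.

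Genes of cross-presentation, the process in which APOL7C is known to act, were in part lower in T-DCs. Of 15 such genes, T-DCs had 5 lower and 0 higher than N-mDCs (median log2 fold change -0.46), and 6 lower and 1 higher than T-mDCs (median -0.64). Over all tested genes the medians were 0.05 and 0.07. Of all tested genes, 10.3% were lower and 6.1% higher than in N-mDCs, and 8.79% lower and 5.44% higher than in T-mDCs. The count of 5 lower was 3 without any 1 of the N-mDC samples, T-DC sample 2 or T-mDC sample 2 or 3, the count of 6 lower was 3 without T-DC sample 2 or T-mDC sample 2 or 3, and both were 0 with the erythroid covariate. With that covariate 0 of all tested genes were called against T-mDCs and 484 against N-mDCs, so the 0 against T-mDCs is not particular to this list. Clec9a, the cDC1 receptor for dead cells, had the largest fall in both comparisons (log2 fold change -2.43, SE 0.41, limma adjusted p = 0.00654 against N-mDCs, and -3.17, limma adjusted p = 0.00261 against T-mDCs). Its FPKM was 11.4, 4.51 and 2.80 in T-DC samples 1 to 3, against 30.2 to 38.4 in N-mDCs and 40.3 to 66.8 in T-mDCs. Wdfy4, needed for cross-presentation of cell-bound antigen, and the peptide transporter genes Tap1 and Tap2, named after their values were seen, were also lower in both. Cybb, the catalytic subunit of the phagosomal oxidase, was higher in T-DCs than in T-mDCs (log2 fold change 1.53, SE 0.42, limma adjusted p = 0.0442). Between T-mDCs and N-mDCs 0 of the 15 passed, with a median of 0.07.

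Markers of DCs and of the cDC1 subset fell beside these genes. The summed FPKM of 5 DC genes (Itgax, Flt3, Zbtb46, H2-Ab1 and Cd74) was 497 to 1824 in T-DCs, 13020 to 19490 in N-mDCs and 8700 to 12190 in T-mDCs. Most of this sum is H2-Ab1, an MHCII chain, and Cd74, the MHCII invariant chain, with means of 5214 and 11083 FPKM in N-mDCs. T-DCs were sorted for low MHCII, so the fall of the sum is no result. Flt3 and Zbtb46 were lower in T-DCs than in both other groups, whereas Itgax, which encodes CD11c, was called in neither. Against N-mDCs 5 of 8 cDC1 genes were lower in T-DCs, and against T-mDCs all 8 were, and their summed FPKM was 48.6 to 196 in T-DCs, 315 to 406 in N-mDCs and 421 to 627 in T-mDCs. Clec9a and Wdfy4 are in both lists. Of 7 genes of the cDC2 subset, 5 were lower and 0 higher in T-DCs against N-mDCs (median log2 fold change -1.51). Against T-mDCs 4 were lower and 1 higher (median -1.63). The summed FPKM of the 7 was 443.8, 209.3 and 118.9 in T-DC samples 1 to 3. It was 419.2 to 449.7 in N-mDCs and 238.5 to 317.5 in T-mDCs. T-DC sample 1 thus lay within the range of N-mDCs and above all T-mDCs, so this sum was not low in every T-DC sample. The part of either subset in the level of Apol7c was not tested.

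Most genes of DC maturation were lower in T-DCs. Of 15 such genes, 12 were lower than in N-mDCs (median log2 fold change -3.03) and 13 were lower than in T-mDCs (median -3.25), and 0 were higher in either. Of all tested genes, 10.3% were lower than in N-mDCs and 8.79% lower than in T-mDCs. Ccr7 had the largest fall against N-mDCs (log2 fold change -5.90, SE 0.76) and Fscn1, an actin-bundling protein of mature DCs, the largest against T-mDCs (log2 fold change -6.54, SE 0.52). Between T-mDCs and N-mDCs 0 of the 15 were called, where 1.52% of all tested genes were lower and 0.69% higher. This does not make them alike. By log2 fold change 12 were above 0 and 3 below, with a median of 0.41. The values ran from -1.63 for Cd83 (SE 0.45, limma adjusted p = 0.115) to 2.19 for Il12b (SE 0.65, limma adjusted p = 0.133). The list was chosen with results of these data known, and its direction is no independent evidence.

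Genes of the type I interferon response, the class to which Apol9a and Apol9b belong, moved both ways. Of 24 tested genes T-DCs had 6 lower and 1 higher than N-mDCs (median log2 fold change -0.62), and 1 lower and 3 higher than T-mDCs (median 0.32). Of all tested genes, 10.3% were lower and 6.1% higher than in N-mDCs, and 8.79% lower and 5.44% higher than in T-mDCs. Without T-DC sample 1 the genes called higher were 5 against N-mDCs and 8 against T-mDCs, and without N-mDC sample 3 those called lower against N-mDCs were 2. Calls over all tested genes moved as well. Leaving out T-DC sample 1 took them from 2096 to 5030 against N-mDCs and from 1813 to 4475 against T-mDCs. Leaving out N-mDC sample 3 took them to 1041 against N-mDCs. Such moves are therefore not particular to this list. Mx1, an antiviral GTPase, had the largest fall in both (log2 fold change -2.16, SE 0.29, limma adjusted p = 0.00267, and -1.81, limma adjusted p = 0.00582). Zbp1, a sensor of nucleic acids, was higher in both (log2 fold change 0.70, limma adjusted p = 0.0487, and 1.51, limma adjusted p = 0.00307), and Oas3 had the largest rise against T-mDCs among the genes called (log2 fold change 2.77, SE 0.63, limma adjusted p = 0.0227). In T-mDCs 3 of the 24 were lower than in N-mDCs and 0 higher, beside 1.52% of all tested genes lower, and the median was -0.93 beside 0.03 over all tested genes. The count of 3 fell to 0 when N-mDC sample 2 or 3 or T-mDC sample 2 or 3 was left out, and it was 7 without T-DC sample 1 and 6 without T-DC sample 3. Calls over all tested genes, 282 in the main fit, were then 47 and 55 without N-mDC sample 2 or 3. They were 25 and 23 without T-mDC sample 2 or 3, 1022 without T-DC sample 1 and 282 without T-DC sample 3. The fall to 0 is therefore not particular to this list. The 3 genes called in the main fit were Ifit3, with the largest fall (log2 fold change -2.35, SE 0.41, limma adjusted p = 0.0267), and Bst2 and Mx2, which are named after their values were seen. Bst2 is also among 5 marker genes of plasmacytoid DCs, of which 2 were lower in T-mDCs and 0 higher. The summed FPKM of these 5 was 245 to 481 in N-mDCs and 119 to 148 in T-mDCs. The part of plasmacytoid DCs in the level of Bst2 was not tested.

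T-DC sample 3, which held 46 of the 48 T-DC reads of Apol9b, also had the highest level of Isg15 and Rsad2, interferon genes chosen here after their values were seen. Isg15 was 12.0, 183 and 491 FPKM in T-DC samples 1 to 3, and 16.7 to 37.5 FPKM in T-mDCs and 65.7 to 77.0 FPKM in N-mDCs. Rsad2 was 3.84, 131 and 154 FPKM in T-DCs and 2.29 to 17.9 FPKM in the mature samples. T-DC sample 2 was thus high for both genes with 2 reads of Apol9b, and neither gene passed the test. Against T-mDCs Rsad2 had a log2 fold change of 3.8 (SE 1.13, limma adjusted p = 0.0571), and the limma adjusted p was 0.275 for Rsad2 against N-mDCs and 0.285 and 0.775 for Isg15 against T-mDCs and N-mDCs.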

How the data were processed

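RNA-seq of 9 samples (N-mDCs, T-DCs and T-mDCs, 3 each) was analysed as FPKM values deposited by the authors, whose genome build was mm10 per the labels. The aligner, counter, annotation and strand setting are not given in the sources used here. FPKM multiplied by the deposited gene length gave whole reads to within 5.72e-05 of a read, and 15360815 to 18440913 reads on genes per sample. The 12746 genes that reached FPKM 1 in at least 3 samples were fitted as log2(FPKM + 1) with limma 3.58.1 in R 4.3.3 (all 9 samples in 1 fit, variance trend, two-sided, Benjamini-Hochberg adjustment, threshold 0.05), after tests on simulated data. Standard errors are those of this fit. Floors of 3 reads cover counting error only.

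The members and lists were chosen with earlier results of these data known, and contrasts with T-DCs, which chose the members, were not tested for them. Genes named are the members, the other Apol genes, tested neighbours in the cluster, the 5 genes most like Apol7c and Apol10b, and from each list its defining genes, the largest called change in each direction and members called against the median of the list. Chromosome positions and lengths were those of the table, and all Apol genes had the same coordinates in GENCODE M21. Promoter windows came from RefSeq (GRCm38.p6). Transcript identity came from local alignment of the longest GENCODE transcripts. The alternatives were a pseudocount of 0.1, no filter, FPKM of at least 5, TPM, quantile and median-of-ratios scaling, the compared groups only, array weights, no trend, a replicate block, voom on the recovered reads, T-mDC samples 2 and 3 averaged, an erythroid covariate, close copies summed and leaving out each sample. Adding Gm8221 to Apol7c was chosen after seeing the data.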

Additional observations from a re-analysis of the deposited data

How the results depend on the processing

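The count of members called between T-mDCs and N-mDCs was 0, and it was 1 with no filter (Apol7e) and 1 with array weights (Apol7c, log2 fold change -1.24, limma adjusted p = 0.0247), while leaving out a sample gave 0 each time. Limma adjusted p for Apol7c in this comparison ran from 0.0247 to 0.649 over 24 alternatives, and that of Gm8221 passed with array weights (log2 fold change -1.83, limma adjusted p = 0.00434). Calls over all genes in this comparison were 282 in the main fit, 278 with no filter and 3841 with array weights. The calls of Apol7c and Gm8221 with array weights are therefore not particular to these genes. The log2 fold change of Apol7c in T-DCs against N-mDCs, -6.23, became -7.43 with a pseudocount of 0.1, -7.73 with voom on recovered reads and -5.29 with the erythroid covariate. Against T-mDCs, -5.25 became -6.43 with a pseudocount of 0.1, -6.14 with TPM, -6.83 with voom and -3.90 with the covariate. It stayed below 0 under all 24 alternatives, and leaving out a sample gave -6.61 to -5.71 and -5.49 to -4.80. Apol11b reversed to -0.29 against T-mDCs with the covariate, and the cause was not tested. With the covariate, 0 genes were called between T-DCs and T-mDCs. Counts of the lists moved more. Genes of cross-presentation called lower ran from 0 to 10 against N-mDCs and from 0 to 9 against T-mDCs. Those of the interferon response called lower in T-mDCs ran from 0 to 16, with 0 when N-mDC sample 2 or 3 or T-mDC sample 2 or 3 was left out. Leaving out a sample also moved the calls over all tested genes. They ran from 980 to 5030 for T-DCs against N-mDCs, from 541 to 4475 against T-mDCs, and from 23 to 1022 for T-mDCs against N-mDCs. Scaling to TPM moved the median of all genes to -0.23 for T-DCs against T-mDCs and to 0.21 for T-mDCs against N-mDCs, and voom moved the latter to 0.13.

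No pairing by the shared replicate numbers was seen in the values. Correlations of same-numbered deviations ran from -0.475 to 0.269, and 0 samples correlated best with their own number. Deviations from a mean of 3 samples are tied to each other, so these correlations cannot exclude that samples of different groups came from the same mice. With a replicate block 0 members were called, the log2 fold changes of Apol7c stayed at -6.23 and -5.25, and calls over all genes went from 2096 to 1378, from 1813 to 1253 and from 282 to 78. Depth limits Apol7b, Apol7e, Apol9a and Apol9b, with 3 to 92 reads over all samples, and Apol7a, with none. T-mDC samples 2 and 3 were very alike, and averaging them left 23 genes called between T-mDCs and N-mDCs.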
